A study of Ogataea parapolymorpha with 16 samples.

Results

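The transcriptomes of wild-type Ogataea parapolymorpha CBS11895 were compared between glucose-grown batch cultures and glucose-limited chemostat cultures at 0.1 per h. The comparison used 4 of the 16 samples of the series and every gene by its locus tag, of which 5233 of the 5408 listed genes passed a filter on low values. In the batch cultures the cells grew on excess glucose at 0.37 per h and were sampled in mid-exponential phase, while most of the glucose remained. In the chemostat cultures the dilution rate set growth at 0.1 per h and residual glucose limited it. All 4 cultures carried the wild-type genotype and were grown in bioreactors on synthetic medium with 7.5 g/L glucose, at a working volume of 1.4 L, 30 °C, pH 5.0, 800 rpm and 0.5 vvm of air. There were 2 independent cultures per condition, and p-values rest on how far such cultures differed, pooled over the 4 CBS11895 groups and moderated across genes. The other samples came from CBS11895 in slower glucose-limited cultures (0.001 and 0.025 per h) and from strain IMD010, a complex I mutant with a frameshift in the NUBM gene, under the same 4 regimes. Batch and chemostat cultures differed in growth rate and in residual glucose at once, and the parts of these in any difference cannot be told apart here.

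O. parapolymorpha is a Crabtree-negative yeast, which means that it respires sugar in aerobic cultures even when sugar is plentiful. In yeasts, ample glucose commonly represses genes for high-affinity sugar uptake, gluconeogenesis, the glyoxylate cycle, fatty acid oxidation and storage carbohydrate use, whereas fast growth is accompanied by high transcription of genes for ribosomes and amino acid use. Electrons from NADH enter the respiratory chain of this yeast through complex I, a large enzyme that pumps protons, or through single-subunit type II NADH dehydrogenases (NDH2), which do not.

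The 4 libraries held 17272957 to 19989576 reads counted to genes. Values are FPKM as deposited by the authors, divided by a trimmed-mean (TMM) factor, and are called normalized FPKM below. These values compare cultures within a gene. They do not compare genes, because the deposited values were not scaled to annotated gene length, so levels of different genes are set side by side only as FPKM recomputed on annotated length. The 2 batch cultures differed from each other more than the 2 chemostat cultures did, with an SD of the log2 difference over genes of 0.278 for batch and 0.135 for chemostat. Genes are written with their product names where the study gives one. Of all listed genes 1396 had a name other than hypothetical protein, and most gene lists below were built from product names and hold only members among these. The lists of complex I subunits, NDH2 genes and reactive oxygen genes instead hold the locus tags that the study names, many of them without a product name.

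At a false discovery rate (FDR, limma with Benjamini-Hochberg adjustment over all genes tested) under 0.05, 2225 genes were higher in batch (42.5% of those tested) and 2118 were lower (40.5%). Large changes, meaning an absolute log2 fold change over 2 at an FDR under 0.001, were found for 192 genes higher in batch (3.67%) and 560 genes lower (10.7%). Both batch cultures lay above both chemostat cultures in 2462 genes (47%) and below both in 2340 (44.7%). The median log2 fold change over all genes tested was 0.04. Without the TMM factors it was -0.38, a shift of -0.42, and the split was 1498 genes higher (28.6%) against 2778 lower (53.1%), with 96 large changes higher (1.83%) and 829 lower (15.8%). Directions below are therefore relative to the TMM scale. For every gene list below, the shares to compare with are those over all genes tested, 42.5% higher and 40.5% lower as deposited.

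Short genes were low in both batch libraries relative to the chemostat libraries at 0.1 per h. The 80 genes of at most 300 bp had a median log2 fold change of -1.79, the 687 genes of 301 to 600 bp one of -1.15, and the 324 genes over 3000 bp one of 0.54. Against the mean of the chemostat cultures, the shortest class stood at a median of -2.00 in batch culture 1 and -1.44 in batch culture 2. In IMD010, whose 2 chemostat cultures at 0.1 per h differed widely from each other, the same contrast gave 0.19 for that class. Large decreases took 42.5% of the genes of at most 300 bp, 31.4% of those of 301 to 600 bp and 4.40% of those over 1200 and up to 3000 bp. The trend was therefore removed in a second fit, by local regression of each culture's values on annotated length, after which the median of the shortest class was -0.12 and that of the longest 0.14. In that fit 2323 genes were higher in batch (44.4%) and 2014 lower (38.5%), and the large changes numbered 242 higher (4.62%) and 363 lower (6.94%). Of the 560 large decreases 321 (57.3%) were also large decreases in the second fit, and of the 192 large increases 147 (76.6%) were shared. The decreases that were not shared had a median length of 468 bp, against 1209 bp over all genes tested. The cause of the trend was not tested. Log2 fold changes with the length trend removed are given beside many of those as deposited.

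**Figure D1:**
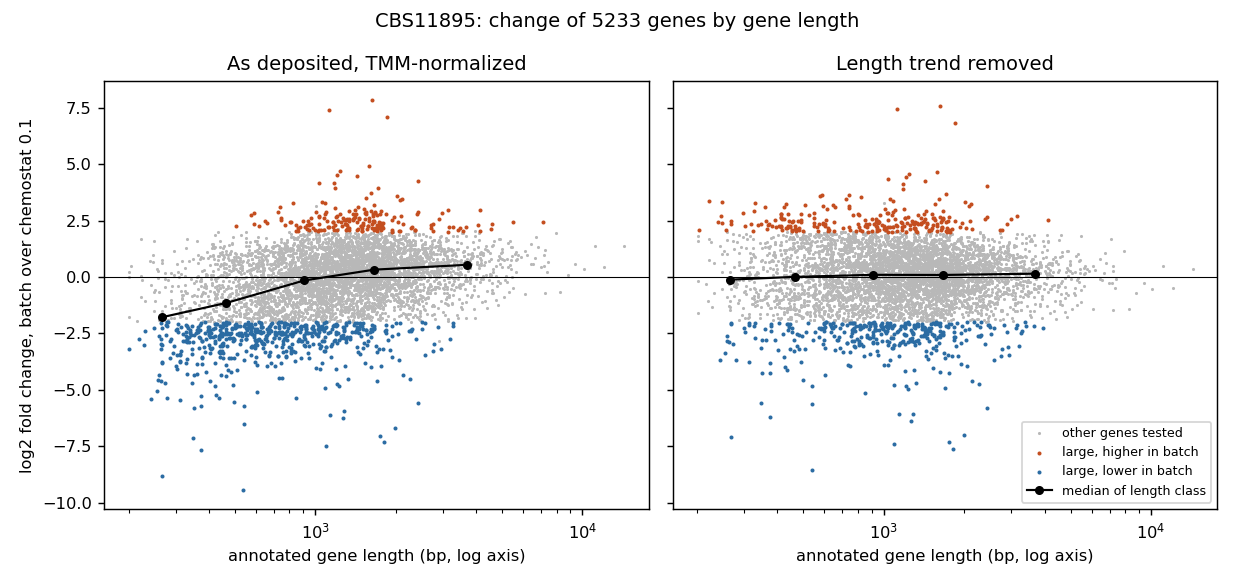
Log2 fold change, batch over chemostat at 0.1 per h, of each gene tested (points) against annotated gene length in bp (log axis) in CBS11895, as deposited (left panel) and with the length trend removed (right panel). Coloured points are large changes and the marks are medians by length class, which run from -1.79 for genes of at most 300 bp to 0.54 for genes over 3000 bp as deposited, and from -0.12 to 0.14 after removal of the trend.

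The largest increase on the log2(normalized FPKM + 1) scale was that of HPODL_00453, annotated as the low-affinity glucose transporter HXT3 (chromosome III, 514709 to 516337, in the RefSeq assembly of strain DL-1). In Saccharomyces cerevisiae this carrier serves growth at high glucose. It had 29951 and 30327 normalized FPKM in the batch cultures, against 171 and 103 in the chemostat cultures. The groups were far apart, with a 220-fold higher mean in batch (the ratio of means of HPODL_00654, described below, was 238) and a log2 fold change of 7.82 ± 0.36 (SE, FDR = 5.3e-07, limma). Of the 7 sugar transporters in the list 4 rose and 3 fell, with a median of 0.73 against 0.04 over all genes. The MFS sugar transporter HPODL_01784 went the other way, with 1996 and 1642 normalized FPKM in batch and 5243 and 4786 in the chemostat (-1.47, FDR = 0.000132). Lower in batch were also the sugar porter HPODL_01994 (-1.50) and HPODL_00134, annotated as a lactose permease, whose values of 7.49 and 8.94 in batch and 53 and 38.6 in the chemostat rest on 22 to 223 reads per library (-2.33). A second gene annotated as a lactose permease, HPODL_01759, rose (1.13). Members of this family were thus called in opposite directions, and removal of the length trend left HPODL_00453 at 7.56 and HPODL_01784 at -1.74.

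Of the 6 glycolytic genes in the list 4 rose, 1 fell and 1 did not pass, beside 42.5% of all genes tested that rose. The list median was 0.48, and 0.05 without the TMM factors. Pyruvate kinase (HPODL_01513), which forms pyruvate in the last step of glycolysis, had 16406 and 16705 normalized FPKM in batch and 5160 and 5017 in the chemostat, a log2 fold change of 1.70 ± 0.08 (FDR = 4.7e-07). Glucose-6-phosphate isomerase (HPODL_01256, 0.85) and the beta subunit of 6-phosphofructokinase (HPODL_01506, 0.65) rose less, and the call for HPODL_01506 was lost without the TMM factors (0.23, FDR = 0.102). The gene that fell, HPODL_00350, is annotated as phosphoglycerate mutase and was scarce, at 7.72 and 7.18 in batch and 23.6 and 21.5 in the chemostat (-1.48). All 3 pyruvate dehydrogenase genes, whose products convert pyruvate to acetyl-coenzyme A in mitochondria, rose by 0.89 to 1.31 on the log2 scale.

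Genes for making sugar from smaller carbon compounds were low in batch. Of the 4 genes in the gluconeogenesis and glyoxylate list, 3 fell and none rose, with a median of -1.81, beside 40.5% of all genes tested that fell. Phosphoenolpyruvate carboxykinase (HPODL_00509), the entry enzyme of gluconeogenesis, had 374 and 678 normalized FPKM in batch and 4486 and 4038 in the chemostat. Its mean was 8.10-fold lower in batch (-3.08 ± 0.27, FDR = 1.63e-05). Isocitrate lyase (HPODL_00142) and malate synthase (HPODL_01838) form the glyoxylate cycle, which lets cells grow on acetate-type carbon. Isocitrate lyase had 26.7 and 83.1 in batch, 2 cultures that themselves differed widely, and 229 and 223 in the chemostat (-2.24 ± 0.43, FDR = 0.00153). Malate synthase had 304 and 354 in batch and 882 and 826 in the chemostat (-1.38). These are long genes, and removal of the length trend made the decreases larger, at -3.35, -2.50 and -1.65.

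Acetate and ethanol genes did not move together. In this list of 4 the NADP-dependent alcohol dehydrogenase HPODL_00654 rose, the potassium-activated mitochondrial aldehyde dehydrogenase HPODL_00293 fell, and 2 did not pass the test. HPODL_00654 had 493 and 240 reads in the batch libraries against 1 and 3 in the chemostat libraries. The ratio of its read sums, scaled to depth and TMM factors, was 247, with an exact 95% interval of 96.3 to 911 that covers counting error only. HPODL_00293, which oxidizes acetaldehyde to acetate, had 11320 and 5855 normalized FPKM in batch and 27780 and 25309 in the chemostat (-1.70 ± 0.26, FDR = 0.000416).

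**Figure D2:**
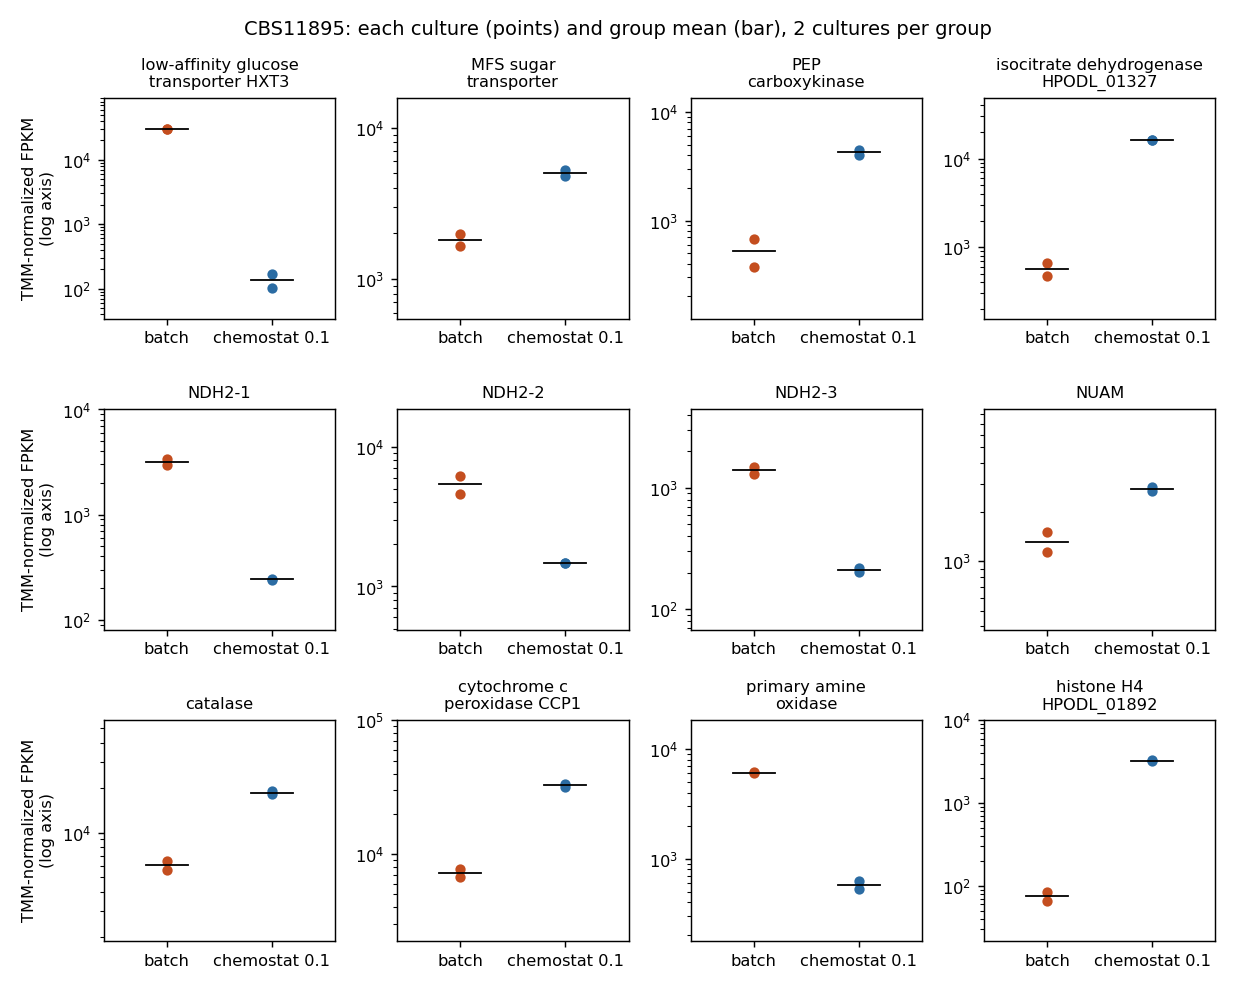
Normalized FPKM (log axes, a scale per panel) of each culture (points) and the group mean (bar) for 12 CBS11895 genes, with batch cultures left and chemostat cultures at 0.1 per h right. In every panel both batch cultures lie on the same side of both chemostat cultures, from HXT3 (30139 in batch, 137 in the chemostat on average) to histone H4 HPODL_01892 (74.6 in batch, 3271 in the chemostat).

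All 3 NDH2 genes rose in batch in both fits, while none of the 7 essential and 23 accessory nuclear complex I genes rose as deposited (2 and 5 did with the length trend removed). Of all genes tested 42.5% rose as deposited and 44.4% with the trend removed. NDH2-1 (HPODL_02792, chromosome VII, 732181 to 733794) had 3364 and 2989 normalized FPKM in batch and 241 and 244 in the chemostat. This 13.1-fold higher mean corresponded to a log2 fold change of 3.70 ± 0.11 (FDR = 1.16e-07). NDH2-2 (HPODL_00256, chromosome III, 166360 to 168030) had 6196 and 4614 in batch and 1482 and 1469 in the chemostat (3.66-fold, 1.86 ± 0.13, FDR = 4.83e-06). NDH2-3 (HPODL_02018, chromosome I, 360799 to 362895) had 1486 and 1304 in batch and 204 and 218 in the chemostat (6.62-fold, 2.72 ± 0.10, FDR = 2.66e-07). For each of them both batch cultures lay above both chemostat cultures, which was also so in 47% of all genes tested. NDH2-2 and NDH2-3 are annotated as external enzymes, which take NADH from the cytosol. On annotated length, NDH2-2 was the most abundant of the family under both conditions, at 741 ± 153 FPKM in batch and 202 ± 1.23 in the chemostat (SD, n = 2), followed in batch by NDH2-1 (413 ± 34.5) and NDH2-3 (247 ± 22.8), and in the chemostat by NDH2-3 (37.3 ± 1.78) and NDH2-1 (31.6 ± 0.304). With the length trend removed the 3 fold changes were 3.45, 1.58 and 2.46.

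Of the 7 nuclear genes for essential complex I subunits, which carry the flavin, the iron-sulfur clusters and the quinone site, 5 fell and 2 did not pass the test (median -0.93). The share that fell over all genes tested was 40.5%. NUAM (HPODL_03689, chromosome IV, 1156156 to 1158363), which binds iron-sulfur clusters, had 1143 and 1506 normalized FPKM in batch and 2692 and 2865 in the chemostat (-1.08 ± 0.13, FDR = 0.000108). NUBM (HPODL_04625), the NADH-binding flavin subunit, had 1963 and 2132 in batch and 3039 and 2949 in the chemostat (-0.55 ± 0.09, FDR = 0.000528). For both genes the batch cultures lay below both chemostat cultures, as in 44.7% of all genes tested, and by less than the NDH2 genes lay above. NUCM (HPODL_01297) had 3454 and 4376 in batch and 7674 and 7140 in the chemostat (-0.93). NUHM (HPODL_01287) had 145 and 220 in batch and 440 and 409 in the chemostat (-1.24), and NUIM (HPODL_02101) had 309 and 373 in batch and 715 and 687 in the chemostat (-1.04). The 2 genes that did not pass, NUGM (HPODL_03393, 0.11, FDR = 0.493) and NUKM (HPODL_02758, -0.11, FDR = 0.579), had overlapping cultures, and NUGM was called lower without the TMM factors (-0.31, FDR = 0.0374). NUGM had 453 and 536 in batch and 468 and 445 in the chemostat, while NUKM had 327 and 452 in batch and 430 and 401 in the chemostat.

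Length mattered for this complex. With the trend removed, the 3 longest essential genes moved down further (NUAM -1.32, NUBM -0.76, NUCM -1.07), NUHM and NUIM kept their direction at -0.46 and -0.32, and NUGM and NUKM were called higher in batch at 0.34 and 0.69. Among the 23 accessory subunits 19 fell and 4 did not pass as deposited (median -1.61, 9 large decreases), but in the second fit 12 fell, 5 rose and 6 did not pass (median -0.40). NUYM (HPODL_02906, 462 bp) had the lowest value of all, with 23.7 and 49.8 normalized FPKM in batch and 503 and 550 in the chemostat. Its mean was 14.3-fold lower in batch (-3.89 ± 0.29, FDR = 5.9e-06), and -2.79 with the trend removed. NESM (HPODL_04326, 741 bp) had 168 and 228 in batch and 1140 and 1121 in the chemostat (-2.53, and -1.99 with the trend removed). The accessory gene with the longest annotated span, NI8M (HPODL_04214, 1778 bp), had 124 and 184 in batch and 454 and 470 in the chemostat (-1.61, and -1.90). Annotated length runs from gene start to gene end and would include any intron, so the transcript of NI8M may be shorter. In contrast, NB4M (HPODL_02851, 369 bp) had 505 and 611 in batch and 645 and 606 in the chemostat, did not pass as deposited (-0.17, FDR = 0.347) and stood at 1.32 with the trend removed. The direction of several short accessory subunits thus depended on the handling of length. That of NUAM, NUBM, NUCM, NUYM, NESM and, on its annotated span, NI8M did not.

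**Figure D3:**
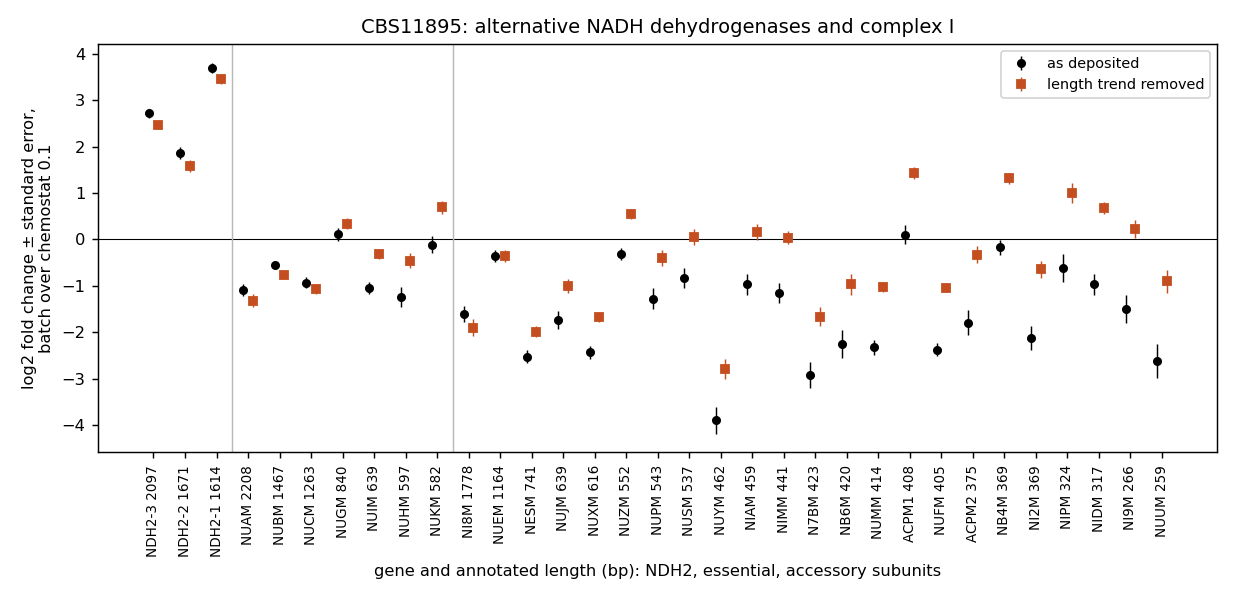
Log2 fold change ± SE, batch over chemostat at 0.1 per h, of the NDH2 genes (left), the essential (middle) and the accessory (right) complex I subunits in CBS11895, each block ordered by annotated length in bp. Black points are values as deposited and orange squares have the length trend removed. The NDH2 genes lie between 1.58 and 3.70 in both, NUAM at -1.08 and -1.32, and the 2 values of a gene move apart toward the short genes.

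Other respiratory genes split by subunit. Of 4 genes of complexes II to IV, 3 fell and 1 rose. Subunit VIa of cytochrome c oxidase (HPODL_01292, 402 bp) had 93.5 and 137 normalized FPKM in batch and 1015 and 1022 in the chemostat (-3.16 ± 0.17, FDR = 1.28e-06), and subunit VI (HPODL_01334, 447 bp) had 86.3 and 142 in batch and 908 and 927 in the chemostat (-3.04). Both remained well below zero with the length trend removed, at -1.81 and -1.87, while subunit IV (HPODL_01289, 565 bp) had -0.77 as deposited and 0.06 after removal. The succinate dehydrogenase cytochrome b subunit (HPODL_01634) rose (0.87, and 1.81 with the trend removed). For the ATP synthase, the beta subunit HPODL_01806 had 79287 and 74429 in batch and 25690 and 26671 in the chemostat (1.55 ± 0.10, FDR = 2.22e-06), whereas the gamma subunit HPODL_00669 had 418 and 600 in batch and 1544 and 1666 in the chemostat (-1.68). Subunits of the same enzyme were thus called in opposite directions, in both fits.

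Of the 8 genes in the tricarboxylic acid cycle list 5 rose, 2 fell and 1 did not pass, with a median of 0.63, beside 42.5% of all genes tested that rose. Succinyl-CoA ligase (HPODL_02040, 1.30), aconitase (HPODL_02026, 1.06) and fumarase (HPODL_00724, 0.87) rose. The isocitrate dehydrogenase HPODL_01327 (chromosome VI, 397790 to 399016), an enzyme that oxidizes isocitrate to 2-oxoglutarate, fell to 468 and 664 normalized FPKM in batch, against 16085 and 16161 in the chemostat. Its mean was 28.5-fold lower in batch (-4.85 ± 0.16, FDR = 1.69e-07), far outside the range of the other members, and -4.95 with the length trend removed.

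Of the 6 genes for removal of reactive oxygen that the study names, 2 rose, 3 fell and 1 did not pass. Catalase (HPODL_04626), the peroxisomal enzyme that splits hydrogen peroxide, had 5630 and 6418 normalized FPKM in batch and 18946 and 18205 in the chemostat, 3.08-fold lower in batch (-1.63 ± 0.09, FDR = 1.56e-06). Cytochrome c peroxidase CCP1 (HPODL_03354), which reduces hydrogen peroxide with electrons from cytochrome c, had 7812 and 6752 in batch and 33341 and 31900 in the chemostat (-2.17 ± 0.14, FDR = 3.19e-06). Both were low in both batch cultures. The superoxide dismutase genes, whose products convert superoxide to hydrogen peroxide, differed among themselves. HPODL_03894 had 9656 and 9643 in batch and 3383 and 3278 in the chemostat (1.53 ± 0.07, FDR = 7.11e-07), and HPODL_01414 had 32.7 and 41.2 in batch and 67.1 and 65.3 in the chemostat (-0.83). The other two were close to the threshold, HPODL_01412 at 0.36 (FDR = 0.0482) and HPODL_02458 at -0.48 (FDR = 0.0636). Both are short, and with the length trend removed HPODL_01412 stood at 1.32 and HPODL_02458 at 0.17. The call for HPODL_01412 was lost without batch culture 2 (0.15, FDR = 0.269), without chemostat culture 1 (0.38, FDR = 0.121) and without chemostat culture 2 (0.35, FDR = 0.149), and without the TMM factors the value was -0.061.

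Fatty acid oxidation genes were low in batch. In this list of 6, 5 fell, 1 did not pass and none rose, with a median of -1.72 (-1.95 with the length trend removed, where all 6 fell). Over all genes tested 40.5% fell, and 38.5% with the trend removed. Acyl-coenzyme A oxidase (HPODL_01143), which starts peroxisomal beta-oxidation, had 695 and 611 normalized FPKM in batch and 2729 and 2707 in the chemostat (-2.06 ± 0.12, FDR = 1.48e-06). A carnitine acetyltransferase (HPODL_01480), which moves acetyl units between compartments, had 541 and 441 in batch and 1776 and 1581 in the chemostat (-1.78). The subunit of the peroxisomal Pxa1-Pxa2 transporter for fatty acids (HPODL_00217) fell by 1.74. The fatty acid-binding protein gene HPODL_01114 (375 bp), which was not in the list, had 20.2 and 18.5 in batch and 767 and 795 in the chemostat (-5.27, and -3.80 with the trend removed).

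Among 10 peroxisome biogenesis genes 4 rose and 5 fell as deposited (median -0.19), against 2 and 6 with the length trend removed (median -0.44). PEX11C (HPODL_00505), from a family that acts in peroxisome proliferation, had 75.5 and 66.9 normalized FPKM in batch and 16.3 and 13.96 in the chemostat (2.16 ± 0.12, FDR = 1.08e-06). The peroxisomal membrane protein gene PMP47B (HPODL_00941) had 4168 and 4687 in batch and 22588 and 23228 in the chemostat (-2.37 ± 0.10, FDR = 3.48e-07). A peroxisomal nudix pyrophosphatase with specificity for coenzyme A (HPODL_00582, chromosome III, 739584 to 740792), which would break down coenzyme A, had 631 and 673 in batch and 17523 and 17457 in the chemostat. Its 26.8-fold lower mean in batch (-4.74 ± 0.11, FDR = 5.18e-08) stood at -4.83 with the length trend removed. Dihydroxyacetone kinase (HPODL_01039), the only gene of the methanol pathway with a product name here, had 399 and 293 in batch and 842 and 779 in the chemostat (-1.24).

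Genes for nitrogen uptake and use rose widely in batch. As deposited, 10 of the 15 genes for uptake and use of nitrogen sources rose (6 of them large), 2 fell and 3 did not pass. Their median was 1.67. Of the 10 amino acid permeases 9 rose and none fell, with a median of 1.44. Across all genes tested 42.5% rose. The peroxisomal primary amine oxidase HPODL_01791 (chromosome VI, 1164664 to 1166742), with which yeasts of this group use primary amines as nitrogen source, had 6108 and 6065 normalized FPKM in batch and 626 and 531 in the chemostat (10.5-fold, 3.40 ± 0.12, FDR = 2.35e-07). The neighbouring general amino acid permease genes HPODL_01635 and HPODL_01636, both annotated as GAP1, rose. HPODL_01636 had 9073 and 7420 in batch and 1523 and 1467 in the chemostat (2.46), and HPODL_01635 had 293 and 267 in batch and 38.8 and 41.5 in the chemostat (2.77). On annotated length HPODL_01636 was the more abundant copy, at 1186 ± 168 FPKM in batch and 215 ± 5.66 in the chemostat, against 40.7 ± 2.61 and 5.83 ± 0.284 for HPODL_01635.

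Other transporters were among the named genes. The uric acid-xanthine permease (HPODL_01923) had 811 and 708 normalized FPKM in batch and 107 and 101 in the chemostat (2.85), the purine-cytosine permease FCY2 (HPODL_01935) had 3193 and 3084 in batch and 436 and 423 in the chemostat (2.87), and a GABA-specific permease (HPODL_00267) had 139 and 144 in batch and 19.6 and 17.5 in the chemostat (2.87). The purine permease HPODL_00162 (2.88) rests on 154 to 204 reads in the batch libraries and 32 to 33 in the chemostat libraries. Of the 2 nitrogen genes that fell as deposited, an allantoate transporter (HPODL_01973) had 3.15 and 7.32 in batch and 12.5 and 15.3 in the chemostat (-1.34), and the copper-containing amine oxidase HPODL_01218 had 93.2 and 101 in batch and 151 and 141 in the chemostat (-0.58). Removal of the length trend moved the list medians to 1.39 for nitrogen uptake and use and 1.18 for amino acid permeases. In that fit 9 of the 15 nitrogen genes rose (4 of them large), 4 fell and 2 did not pass. Among the 10 permeases 9 rose and 1 fell.

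S-adenosylmethionine synthase and most sterol synthesis genes rose as well. The synthase (HPODL_00414, chromosome III, 431086 to 432273), which makes the methyl donor S-adenosylmethionine, had 164512 and 164485 normalized FPKM in batch and 20364 and 19444 in the chemostat (8.26-fold, 3.05 ± 0.08, FDR = 8.22e-08). Of 7 sterol synthesis genes 6 rose and 1 fell (median 1.34), beside 42.5% of all genes tested that rose. HMG-CoA reductase 1 (HPODL_01644), the rate-limiting enzyme of the pathway, had 1112 and 926 in batch and 229 and 214 in the chemostat (2.19 ± 0.11, FDR = 7.67e-07). Delta(14)-sterol reductase (HPODL_00839) rose by 1.87 and C-8 sterol isomerase (HPODL_01504) by 1.74, while sterol 24-C-methyltransferase (HPODL_01877) had 5592 and 5871 in batch and 8437 and 8717 in the chemostat (-0.58).

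Genes of the translation machinery did not move as a block. Translation factors rose in 11 of 16 and fell in 3 (median 0.68), and cytosolic tRNA synthetases rose in 9 of 11 with none lower (median 1.18). The share that rose over all genes tested was 42.5%. With the length trend removed, 11 translation factors rose and 5 fell (median 0.43). In that fit 9 tRNA synthetases rose and 1 fell (median 0.89), beside 44.4% of all genes tested that rose. As deposited without the TMM factors, the medians were 0.25 for translation factors and 0.75 for tRNA synthetases. Elongation factor 1-gamma (HPODL_00531) had 59483 and 62961 normalized FPKM in batch and 10643 and 10754 in the chemostat (2.52 ± 0.08, FDR = 1.89e-07), and elongation factor 1-alpha (HPODL_00974) had 110005 and 129294 in batch and 34096 and 34458 in the chemostat (1.80). Phenylalanine-tRNA ligase beta (HPODL_00119) rose by 2.24. By contrast, the beta subunit of initiation factor 2 (HPODL_01227) had 46.0 and 58.4 in batch and 229 and 253 in the chemostat (-2.19, and -1.95 with the length trend removed).

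Ribosomal protein genes are short, and their direction depended on the handling of length. Of 29 cytosolic ribosomal protein genes 9 rose, 14 fell and 6 did not pass as deposited (median -0.35), but 18 rose and 7 fell with the trend removed (median 0.43). Of 20 mitochondrial ribosomal protein genes 6 rose and 12 fell (median -0.62), against 11 and 9 in the second fit (median 0.26). Some members had the same sign in both. The stalk protein P0 (HPODL_00074) had 7245 and 6416 normalized FPKM in batch and 1224 and 1231 in the chemostat (2.47, and 2.59 with the trend removed). P2-beta (HPODL_00942), at 330 bp among the shortest, had 3326 and 4734 in batch and 1257 and 1214 in the chemostat (1.68, and 3.30). L31 (HPODL_00596, 348 bp) had 112 and 148 in batch and 953 and 982 in the chemostat (-2.90, and -1.34), and S23 (HPODL_00236, 438 bp) had 271 and 398 in batch and 1913 and 2027 in the chemostat (-2.58, and -1.38). The authors removed reads with more than 1 possible position, so values of genes with a near-identical copy are uncertain.

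The 39 ribosome biogenesis genes are not short as a group (median 1215 bp) and split into 14 that rose and 22 that fell, with a median of -0.61 (-0.43 with the length trend removed). U3 small nucleolar RNA-associated protein 20 (HPODL_00356, 7095 bp), a processing factor of the small subunit, had 180 and 167 normalized FPKM in batch and 31.4 and 31.8 in the chemostat (2.42 ± 0.11, FDR = 6.56e-07, and 1.70). Protein 21 of the same series (HPODL_00590) rose by 2.31. The ribosomal RNA-processing protein 15 gene (HPODL_00152, 786 bp) had 12.6 and 13.6 in batch and 83.0 and 86.3 in the chemostat (-2.61 ± 0.13, FDR = 6.86e-07, and -2.19). TSR2 (HPODL_00607), which rose by 2.25, overlaps another annotated gene, and whether the counting used strand is not clear from the sources used here.

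All 8 histone genes fell, with a median of -2.16, and 7 of 8 still fell with the length trend removed (median -0.996). Over all genes tested 40.5% fell as deposited and 38.5% with the trend removed. Histones package DNA and are made mostly during DNA synthesis. The histone H4 gene HPODL_01892 (chromosome VI, 1343849 to 1344160, 312 bp) had 64.8 and 84.5 normalized FPKM in batch and 3189 and 3354 in the chemostat, 43.8-fold lower in batch (-5.45 ± 0.13, FDR = 6.88e-08, and -3.79 with the trend removed). The other H4 gene, HPODL_01325, had 323 and 536 in batch and 5632 and 5756 in the chemostat (-3.77, and -2.11). The H3 gene next to HPODL_01892, HPODL_01891, had 207 and 330 in batch and 2304 and 2324 in the chemostat (-3.14, and -1.83). Sequences of the histone copies were not compared here, and the removal of reads with more than 1 possible position would lower values of copies that are near-identical. The 10 DNA replication genes, which are long, did not share this: 5 rose, 2 fell and 3 did not pass (median 0.34, but -0.07 without the TMM factors). Genes of at most 300 bp and of 301 to 600 bp were low in batch as classes, at medians of -1.79 and -1.15, and the part of this in the histone values was not tested beyond removal of the trend.

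Stress, storage and recycling genes were mixed or low. Glycogen phosphorylase (HPODL_01450), which frees glucose units from glycogen, had 193 and 264 normalized FPKM in batch and 2370 and 2544 in the chemostat (10.8-fold lower, -3.44 ± 0.14, FDR = 3.47e-07). The phosphatase subunit of trehalose synthase (HPODL_01643) rose, with 653 and 557 in batch and 246 and 251 in the chemostat (1.28). Of 9 heat shock and chaperone genes 4 rose, 2 fell and 3 did not pass. The heat shock protein 42 gene (HPODL_01889), a small chaperone in S. cerevisiae, had 3.79 and 5.04 in batch and 63.2 and 63.8 in the chemostat (-3.58 ± 0.11, FDR = 1.54e-07), while the endoplasmic reticulum chaperone HPODL_01473 rose by 0.87. The stress protein gene DDR48 (HPODL_00285) had 4.41 and 5.14 in batch and 133 and 122 in the chemostat (-4.48). Of 5 autophagy genes 3 fell and 2 did not pass (median -1.07), with ATG3 (HPODL_01803), an enzyme of Atg8 lipidation, at 5835 and 5853 in batch and 16692 and 16149 in the chemostat (-1.49).

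**Figure D4:**
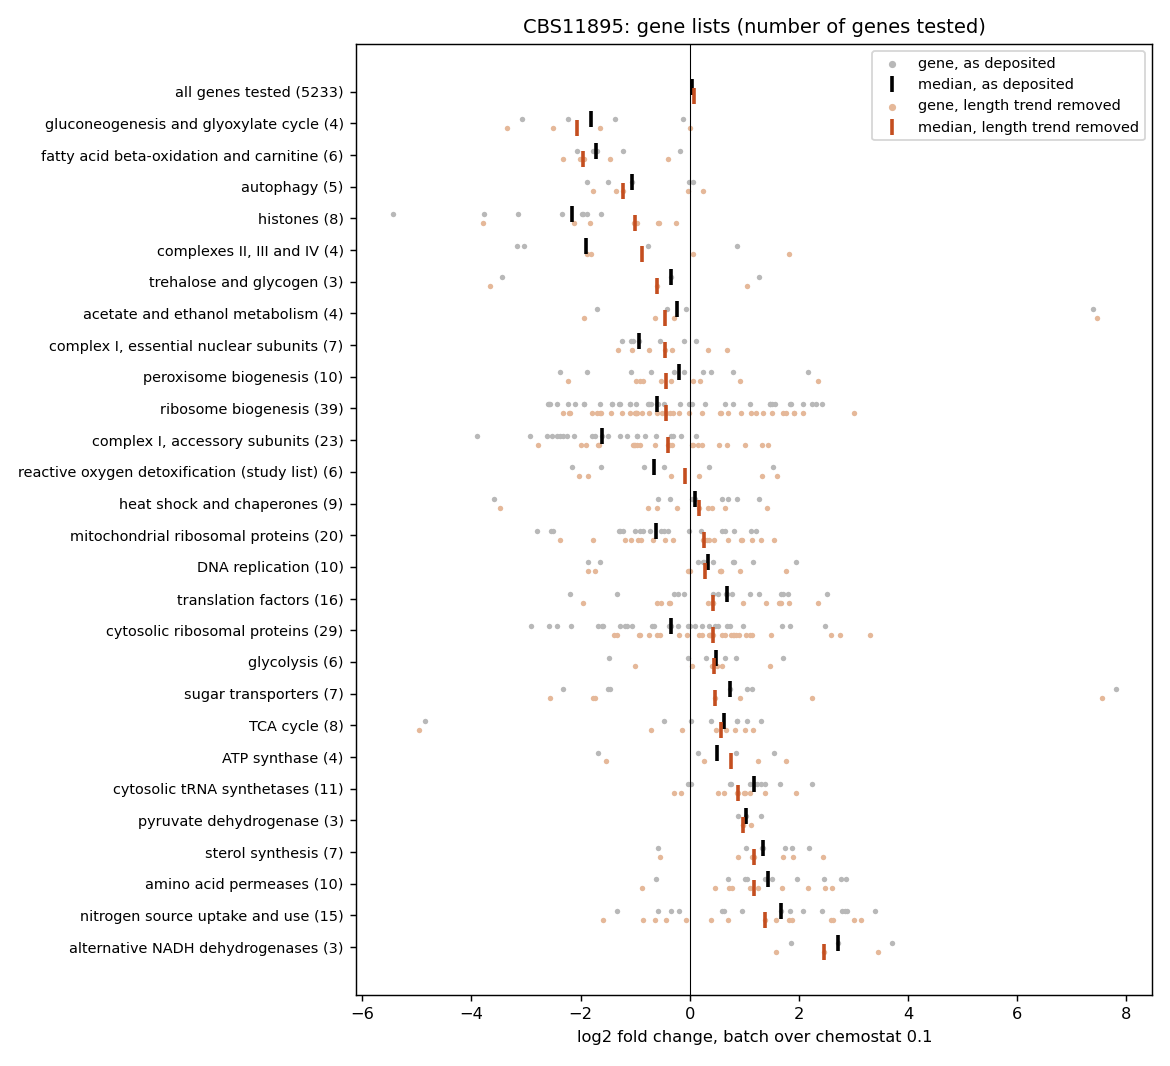
Log2 fold change, batch over chemostat at 0.1 per h, of the genes of each list in CBS11895 (points) and their median (vertical marks), as deposited (grey, black) and with the length trend removed (orange); the number of genes tested is in parentheses. The alternative NADH dehydrogenases (median 2.72 as deposited) and nitrogen lists (1.67) lie at the high end. The lowest median is that of histones as deposited (-2.16) and that of gluconeogenesis with the trend removed (-2.07, and -1.81 as deposited). The cytosolic ribosomal proteins change side from -0.35 to 0.43.

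Over all genes, 147 higher in batch and 321 lower met the thresholds for a large change in both fits with separated cultures, and the extremes among them follow. After HPODL_00453 and HPODL_00654, the strongest increase was that of the myo-inositol transporter gene HPODL_01129 (chromosome VI, 66042 to 67895), with 2522 and 2032 normalized FPKM in batch and 14.3 and 16.8 in the chemostat (146-fold, 7.10 ± 0.25, FDR = 2.1e-07). The next 9 have no product name in the table used here and ran from 3.94 (HPODL_05056, HPODL_04501) to 4.90 (HPODL_02922). HPODL_03727 had 11099 and 10692 in batch and 450 and 404 in the chemostat (4.67), and HPODL_02415 had 6046 and 5772 in batch and 330 and 322 in the chemostat (4.18). HPODL_02922 was less even, with 321 and 156 in batch and 7.69 and 5.53 in the chemostat. Among genes with a product name, the ferric and cupric reductase HPODL_01387, which reduces metal ions for uptake, had 209 and 304 in batch and 19.7 and 24.0 in the chemostat (3.47). The mannosyltransferase gene KTR1 (HPODL_01659), for protein glycosylation, had 1487 and 1729 in batch and 163 and 167 in the chemostat (3.27).

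The lowest ratio belonged to HPODL_02349 (chromosome I, 878055 to 878591), a gene of 537 bp with no product name, at 2.40 and 3.60 normalized FPKM in batch and 2840 and 2597 in the chemostat (906-fold lower, -9.42 ± 0.18, FDR = 3.69e-08, and -8.54 with the length trend removed). HPODL_03065 (267 bp), annotated as an ATPase-stabilizing factor, had 4.51 and 6.30 in batch and 2862 and 2911 in the chemostat (-8.83, and -7.11). The L-arabinitol 4-dehydrogenase gene HPODL_00863, for use of pentoses and their alcohols, had 3 and 6 reads in the batch libraries against 1285 and 1054 in the chemostat libraries, a 192-fold lower depth-scaled ratio in batch with an exact 95% interval of 101 to 421. Long genes were among them too. HPODL_04538 (1812 bp) had 2.29 and 1.39 normalized FPKM in batch and 466 and 437 in the chemostat (-7.34, and -7.63), and HPODL_03886 (1995 bp) had 146 and 170 in batch and 17288 and 15987 in the chemostat (-6.71, and -6.99). Ornithine-oxo-acid transaminase (HPODL_00888), of ornithine breakdown, had 9.60 and 9.05 in batch and 620 and 648 in the chemostat (-5.94). The sorbose reductase gene SOU1 (HPODL_00159) had 9.96 and 8.92 in batch and 431 and 416 in the chemostat (-5.35). In each of these genes the 2 batch cultures lay far below both chemostat cultures.

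The slower glucose-limited cultures of CBS11895 put the levels at 0.1 per h beside those at other rates. HPODL_00453 averaged 724 ± 347 normalized FPKM in the retentostat (0.001 per h), 520 ± 130 at 0.025 per h, 137 ± 48.6 at 0.1 per h and 30139 ± 266 in batch (SD, n = 2 each), so all glucose-limited groups lay far below batch. NDH2-1 averaged 170 ± 1.11 in the retentostat, 95.5 ± 12.1 at 0.025 per h, 243 ± 2.33 at 0.1 per h and 3177 ± 265 in batch. HPODL_01327 averaged 11124 ± 171 in the retentostat, 17471 ± 1752 at 0.025 per h, 16123 ± 53.4 at 0.1 per h and 566 ± 139 in batch. These 3 genes separated batch from all glucose-limited cultures. Histone H4 HPODL_01325 did not follow that pattern, at 597 ± 10.6 in the retentostat, 5499 ± 1683 at 0.025 per h, 5694 ± 87.7 at 0.1 per h and 430 ± 150 in batch. This gene is 312 bp long, and all levels in this paragraph still hold the length trend. Its log2 fold change in batch against 0.1 per h was -3.77 as deposited and -2.11 with the trend removed. The 2 other histone genes named above did lie lower in batch than in every glucose-limited group. H4 HPODL_01892 averaged 1975 in the retentostat, 4709 at 0.025 per h, 3271 at 0.1 per h and 74.6 in batch. H3 HPODL_01891 averaged 2112, 3174, 2314 and 269 in that order. Retentostat cultures received medium with 5 g/L glucose.

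The same contrast was available in IMD010 from other cultures and libraries. There 1258 genes were higher in batch (24% of those tested) and 1452 lower (27.7%), with 24 large increases (0.459%) and 211 large decreases (4.03%). The 2 IMD010 chemostat cultures at 0.1 per h differed widely from each other, with an SD of the log2 difference of 0.889, so fewer calls there are not by themselves a difference between strains. A test of the difference between the strains' fold changes (limma interaction contrast) called 2302 genes higher in CBS11895 (44%) and 1701 lower (32.5%). Of these, 118 were large and higher (2.25%) and 469 large and lower (8.96%). The large ones changed to 31 and 410 without IMD010 chemostat culture 1 and to 662 and 966 without culture 2. With the length trend removed, 41.3% of genes tested were higher in CBS11895 and 33.3% lower in this test, 138 large and higher (2.64%) and 187 large and lower (3.57%). In IMD010 alone that removal left 29.1% higher and 24.2% lower in batch, with 0.631% large increases and 3.76% large decreases.

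Several of the largest changes had the same sign in both strains. HPODL_00453 stood at 7.82 in CBS11895 and 5.16 in IMD010, HPODL_02349 at -9.42 and -8.61 in that order of strains, HPODL_01327 at -4.85 and -4.08, and HPODL_00509 at -3.08 and -4.81. The NDH2 genes rose in both, with a smaller change in the mutant: NDH2-1 at 3.70 in CBS11895 and 0.97 in IMD010 (difference 2.74, FDR = 0.000179), NDH2-2 at 1.86 and 0.82 (difference 1.03, FDR = 0.00299), and NDH2-3 at 2.72 and 1.46 (difference 1.26, FDR = 0.0048). With the length trend removed the differences were 2.20, 0.49 (FDR = 0.0447) and 0.83 (FDR = 0.0282). Without IMD010 chemostat culture 1 they were 2.40, 0.78 and 0.80, and without culture 2 they were 3.07, 1.29 and 1.72. NDH2-1 had 2106 and 2000 normalized FPKM in IMD010 batch and 1327 and 832 in IMD010 chemostat cultures. Its level in IMD010 was thus lower in batch and higher in the chemostat than in CBS11895. NDH2-2 had 2428 and 2440 in IMD010 batch and 1643 and 1150 in IMD010 chemostat cultures. It was lower than in CBS11895 in batch and overlapped in the chemostat. Histone H4 HPODL_01892 was -5.45 in CBS11895 and 0.66 in IMD010, where it did not pass the test (1969 and 1980 normalized FPKM in IMD010 batch, 524 and 2956 in IMD010 chemostat cultures). All 8 histone genes had a lower fold change in CBS11895 than in IMD010 by this test, and 7 of 8 with the length trend removed. Cytosolic ribosomal proteins had a median of -0.35 in CBS11895 and 1.58 in IMD010, with a lower fold change in CBS11895 for 24 of 29 genes and a higher one for 2. With the length trend removed the medians were 0.43 in CBS11895 and 1.43 in IMD010, with 23 genes lower and 3 higher in CBS11895. Of the amino acid permeases 9 of 10 had a higher fold change in CBS11895, with medians of 1.44 in CBS11895 and -0.48 in IMD010, and with the trend removed 7 of 10 did, with medians of 1.18 and -0.21. As given above, genes of at most 300 bp had a median of 0.19 for batch over chemostat in IMD010. That contrast included IMD010 chemostat culture 1. Some short genes were far lower there than in culture 2, such as HPODL_01892 and L31 (HPODL_00596, 189 against 876), while HPODL_00730 was not (167 against 150). Medians by length were not computed for each IMD010 culture. The part of gene length in these strain differences was not tested beyond the removal of the trend.

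**Figure D5:**
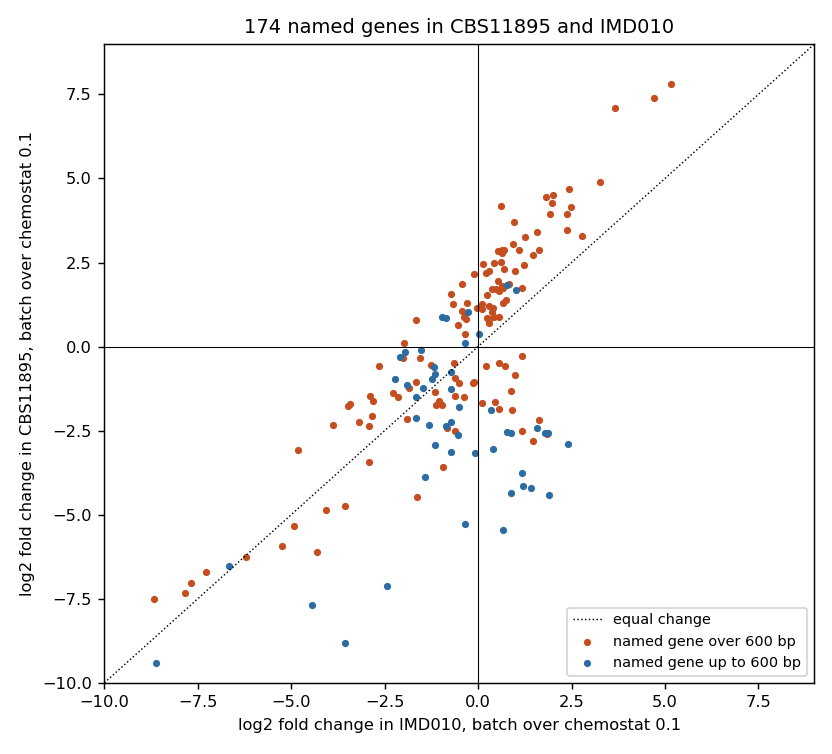
Log2 fold change, batch over chemostat at 0.1 per h, of the 174 genes named by the selection rule, in CBS11895 (vertical axis) and IMD010 (horizontal axis); orange points are genes over 600 bp and blue points genes up to 600 bp, and the dotted line marks equal change. HXT3 lies at 7.82 in CBS11895 and 5.16 in IMD010, and histone H4 HPODL_01892 at -5.45 and 0.66, among blue points below the line.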

How the data were processed

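RNA-seq of polyadenylated RNA was analysed in 16 samples (2 cultures of each strain under each of 4 conditions), of which the 4 of CBS11895 in batch and chemostat culture at 0.1 per h were compared. Groups and culture numbers came from the labels. The authors aligned reads with STAR (2.5.3a per the labels) to the CBS11895 (DL-1) assembly, discarded multi-mapping reads, counted with HTSeq and deposited FPKM values per gene. The labels name a kit that does not mark strand, while the methods describe strand-specific libraries, so the use of strand is uncertain.

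Each gene's FPKM values stepped in units of 1 read (100% of values above 0, tolerance 0.01 reads), which gave the reads of 5400 genes; 8 genes were at 0 throughout. The number by which the reads were divided ran from 1 to 1120 and followed annotated length sorted as text (Spearman 0.993 over 5004 genes whose length is a multiple of 3), not as a number (-0.353). TMM factors (trims of 30% and 5%) were computed from the reads over all 16 samples, and were 0.837 to 1.15 in the 4 libraries. Genes with a group mean of at least 10 FPKM in at least 1 of 8 groups were kept. Values were tested as log2(normalized FPKM + 1) with limma 3.58.1 in R 4.3.3 on the 8 CBS11895 samples in 4 groups (4 residual degrees of freedom, 3.59 prior), with Benjamini-Hochberg adjustment over all genes tested; fold changes on this scale understate those of low genes. The length trend was removed by local regression (span 0.3) of each sample's deviations from the gene means on log length. The strain difference used 1 fit of all 16 samples. Ratios of few reads carry exact 95% intervals for counting error only. The procedures were tested on simulated data.

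Members and gene lists were chosen with earlier results of these data known. Genes named are the 12 largest and 12 smallest changes among large changes in both fits with separated cultures, the same among genes with a product name, up to 3 at each end of every list at an FDR under 0.05, and every gene the study names, 174 in all. Of these 1 overlaps another annotated gene. The 80 tRNA genes of the annotation formed a list of which none passed the filter. Lists of complex I, NDH2 and reactive oxygen genes used locus tags that the study names, and the others product names or gene type. Product names came from the study's supplementary table (1999 genes), of which no expression value was used. Alternatives were other size factors, filters, pseudocounts, weights and sets of samples, the replicate block and each culture left out. FPKM on annotated length, and those for the second fit other than the replicate block, were chosen after seeing the data.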

Additional observations from a re-analysis of the deposited data

Results flagged for a closer look

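In 40 of the 174 named genes the batch effect differed between CBS11895 and IMD010 by more than 2 on the log2 scale at an FDR under 0.001 (limma interaction contrast). Over all genes tested, 2.25% had a large difference with CBS11895 higher and 8.96% with CBS11895 lower. Many named genes were picked for a large change in CBS11895, which enters this difference. A higher share among the named genes was thus partly built in. The values below are the log2 fold change in CBS11895 minus that in IMD010. They were higher in CBS11895 for 15 genes and lower for 25, and 19 of the 25 were 600 bp or shorter. In 22 genes the fold changes had opposite signs in the strains. All 40 kept their sign without either IMD010 chemostat culture and with the length trend removed. The full difference is the mean of the 2 differences with a culture left out, so kept signs in those carry little weight. With the trend removed 23 genes passed both thresholds. The causes were not tested.

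Higher in CBS11895 were 3 genes with no product name, HPODL_02415 (3.56), HPODL_05107 (2.65) and HPODL_02517 (2.51), and the myo-inositol transporter HPODL_01129 (3.43). NDH2-1 (HPODL_02792) differed by 2.74. Peroxisomal proteins PEX10 (HPODL_00444) and PEX11C (HPODL_00505) differed by 2.46 and 2.26. Among nitrogen genes the uric acid-xanthine permease HPODL_01923 differed by 2.32, the GAP1 gene HPODL_01635 by 2.12 and the amine oxidase HPODL_01218 by 2.07. The last fell in both strains, by 0.58 in CBS11895 and by 2.66 in IMD010. Delta(14)-sterol reductase (HPODL_00839) differed by 2.30, the ATP synthase beta subunit (HPODL_01806) by 2.29, the guanine nucleotide-binding protein beta-like gene HPODL_01497 by 2.23, S-adenosylmethionine synthase (HPODL_00414) by 2.10 and ribosomal protein P0 (HPODL_00074) by 2.05.

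Lower in CBS11895 were 25 genes, each given as deposited and then with the length trend removed. The histone genes were HPODL_01892 (-6.11, and -4.30), HPODL_01325 (-4.94, and -3.13) and HPODL_01891 (-2.43, and -0.96). Of genes for RNA processing, the splicing factor CWC24 (HPODL_01518) differed by -6.29 (-5.08 with the trend removed), LSm4 (HPODL_00774) by -5.22 (-3.49), IMP3 (HPODL_01493) by -3.43 (-2.56), RLP24 (HPODL_00809) by -4.465 (-3.66) and ribosomal RNA-processing protein 15 (HPODL_00152) by -4.45 (-4.09). CWC24 had 0.508 and 0.660 normalized FPKM in CBS11895 batch and 34.3 and 30.7 in CBS11895 chemostat cultures, and 36.6 and 36.5 in IMD010 batch and 1.89 and 34.5 in IMD010 chemostat cultures. IMD010 chemostat culture 1 was thus the only 1 of these 4 chemostat cultures with a low value. Without that culture the difference was -4.48 for CWC24 and -4.87 for HPODL_01892, and without culture 2 it was -8.10 for CWC24 and -7.36 for HPODL_01892. Ribosomal proteins were L31 (HPODL_00596, -5.30, and -3.56 with the trend removed), S23 (HPODL_00236, -4.36, and -3.02), S26 (HPODL_01290, -4.02, and -2.33), and the mitochondrial RSM25 (HPODL_01401, -4.27, and -3.90), SWS2 (HPODL_01610, -3.30, and -1.78) and HPODL_01237 (-3.69, and -2.94). Initiation factor 2 beta (HPODL_01227) differed by -3.84 (-3.66) and initiation factor 4E (HPODL_01394) by -2.20 (-1.46). The cytochrome c oxidase subunits VI (HPODL_01334) and VIa (HPODL_01292) differed by -3.45 (-2.15) and -3.06 (-1.55). Prefoldin subunit 4 (HPODL_01279) differed by -5.62 (-4.05), cell division control protein 31 (HPODL_01424) by -5.33 (-4.33), the ATPase-stabilizing factor (HPODL_03065) by -5.27 (-3.47), the fatty acid-binding protein (HPODL_01114) by -4.92 (-3.28) and DDR48 (HPODL_00285) by -2.84 (-2.31). HPODL_04807 (-4.69, and -2.96) and HPODL_04797 (-3.23, and -1.59) have no known product.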

How the results depend on the processing

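CBS11895 counts at an FDR under 0.05 stayed within 1.5 times in every alternative run. Of the large changes (192 higher, 560 lower), without the TMM factors the higher count was 96, with a pseudocount of 10 the lower count was 343, and with the length trend removed, with or without the block, it was 363. With an absolute log2 fold change over 1 at an FDR under 0.05 the counts were 1050 higher and 1297 lower. Leaving out each culture gave 185 to 207 higher and 505 to 631 lower as deposited, and 217 to 281 and 332 to 399 with the trend removed. The strain difference (118 and 469 large) had 187 lower with the trend removed, and 31 to 662 higher and 410 to 966 lower when 1 IMD010 chemostat culture was left out. The replicate block gave 2205 and 2114 calls and 191 and 560 large changes, and with the trend removed 2298 and 2009 calls and 243 and 363 large changes. Deviations of same-numbered cultures correlated at 0.123 between batch and chemostat 0.1 and at -0.170 to 0.0751 between the other CBS11895 groups. The labels give only the culture number, so whether same-numbered cultures shared anything else is unknown here. Of 174 named genes 152 kept direction and side of the threshold in all 17 alternatives. Directions reversed in 15, and the cause was not tested. With the trend removed, with and without the block, these were HPODL_00962 (0.0563), HPODL_01289 (0.057), HPODL_02157 (0.54), HPODL_02458 (0.17), HPODL_02758 (0.69), HPODL_02838 (1.01), HPODL_02851 (1.32), HPODL_04436 (0.0361), HPODL_04805 (0.16), HPODL_04828 (0.68) and HPODL_05148 (0.23). Without the TMM factors they were HPODL_01223 (-0.0332), HPODL_01412 (-0.0613), HPODL_01821 (-0.32) and HPODL_03393 (-0.31). Leaving out each culture gave -0.16 to 0.37 for HPODL_01821 and -0.0119 to 0.23 for HPODL_03393, both lowest without batch culture 2, and -0.34 to 0.12 for HPODL_02758, highest without batch culture 1. Genes with few reads in 1 group have fold changes limited by counting.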

Other observations

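Some genes that were low in batch also differed widely among the glucose-limited cultures of CBS11895. The stress protein gene DDR48 (HPODL_00285) averaged 2528 ± 135 normalized FPKM in the retentostat at 0.001 per h, 782 ± 332 at 0.025 per h, 128 ± 7.34 at 0.1 per h and 4.78 ± 0.519 in batch (SD, n = 2 each). The sorbose reductase gene SOU1 (HPODL_00159) averaged 1675 ± 128 in the retentostat, 695 ± 132 at 0.025 per h, 423 ± 10.6 at 0.1 per h and 9.44 ± 0.734 in batch. PMP47B (HPODL_00941) averaged 59104 ± 5113 in the retentostat, 40813 ± 1308 at 0.025 per h, 22908 ± 453 at 0.1 per h and 4428 ± 367 in batch. For these 3 genes the 4 group means ran in the order of growth rate. They were picked after their values were seen, and no test was run on the order. The levels here and in the next paragraph still hold the length trend.

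For 2 genes that rose in batch the slower cultures lay below those at 0.1 per h. S-adenosylmethionine synthase (HPODL_00414) averaged 4776 ± 69.9 in the retentostat, 8109 ± 368 at 0.025 per h, 19904 ± 651 at 0.1 per h and 164499 ± 18.7 in batch. HPODL_03727, with no product name, averaged 41.6 ± 13.1 in the retentostat, 94.0 ± 16.4 at 0.025 per h, 427 ± 32.2 at 0.1 per h and 10895 ± 288 in batch.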
